A study of Mus musculus with 26 samples.

Results

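The simple epithelial keratins and the claudins named here are 9 genes, Krt7, Krt8, Krt18, Krt19, Cldn3, Cldn4, Cldn6, Cldn7 and Cldn9, taken by name from the gene families. The expression table held 6 of them (Krt7, Krt8, Krt18, Krt19, Cldn3 and Cldn9) among 15646 genes with values, and the same 6 named a captured promoter fragment among the 19022 fragments with a listed contact. Expression of Cldn4, Cldn6 and Cldn7 was not analysed here.

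The study set naive mouse embryonic stem cells (ESCs) beside primed epiblast stem cells (EpiSCs) and beside ESCs that lack the pluripotency factor Nanog, with RNA-seq for expression and promoter-capture Hi-C (PCHi-C) for the contacts of promoters with other restriction fragments. Of its 26 samples, the RNA-seq comprised 3 wild-type ESC, 4 EpiSC and 3 Nanog-/- ESC libraries, the PCHi-C comprised 5, 2 and 5 samples in the same order, and 4 chromatin immunoprecipitation samples were not analysed here. Wild-type ESCs were the E14Tg2a line, of 129P2/OlaHsd origin, and Nanog-/- ESCs were RCNβH-B(t), a hygromycin-selected line derived from E14Tg2a. Both were grown on gelatin in serum with LIF, whereas EpiSCs were derived from 129S2 embryos and grown on fibronectin in N2B27 with Activin A and bFGF. The strain label reads C57BL/6 for all samples, which differs from the growth protocol. State, line, strain and medium therefore cannot be told apart in the EpiSC comparison, and each state is represented by its own line.

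Keratins are intermediate filament proteins that assemble as obligate pairs of a type II and a type I chain. Krt8 (type II) and Krt18 (type I) form the first such pair of the early embryo and of simple, single-layered epithelia, and Krt7 (type II) and Krt19 (type I) join them in ductal and other simple epithelia. Claudins are membrane proteins of tight junctions that seal the space between epithelial cells and set which ions pass.

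The 6 genes with an expression value lie in 4 genomic neighbourhoods, and Cldn7 lies apart from these. Krt7 (ENSMUSG00000023039.17, chr15:101411043-101430313, plus strand, GRCm38) and the pair Krt8 (ENSMUSG00000049382.10, chr15:101996698-102004482, minus strand) and Krt18 (ENSMUSG00000023043.7, chr15:102028180-102032027, plus strand) stand at opposite ends of the type II keratin cluster, of which Krt18 is the one type I gene. Krt19 (ENSMUSG00000020911.14, chr11:100140810-100148665, minus strand) lies in the type I cluster. Cldn3 (ENSMUSG00000070473.4, chr5:134986214-134987472, plus strand) neighbours Cldn4, and Cldn9 (ENSMUSG00000066720.7, chr17:23682584-23684026, minus strand) neighbours Cldn6.

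The promoters of Krt7, Krt8, Krt18 and Cldn3 are printed below because these are the genes with both an expression value and a window in the RefSeq table. Each runs 5′ to 3′ on the gene's strand in GRCm38.p6, from 250 bases before to 50 after the RefSeq transcript start. Capitals mark TATAA on the gene strand, and CACCTG or its reverse complement CAGGTG, the E2-box letters that repressors of the Snail and Zeb families are known to bind.
Krt7, chr15:101412153-101412452, plus strand: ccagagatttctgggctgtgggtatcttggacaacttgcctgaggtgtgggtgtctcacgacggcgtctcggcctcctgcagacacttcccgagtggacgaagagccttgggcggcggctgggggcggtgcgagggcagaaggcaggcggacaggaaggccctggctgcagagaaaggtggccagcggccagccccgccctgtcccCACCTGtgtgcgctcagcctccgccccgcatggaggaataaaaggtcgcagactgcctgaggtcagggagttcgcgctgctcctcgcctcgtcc
Krt8, chr15:102004293-102004592, minus strand: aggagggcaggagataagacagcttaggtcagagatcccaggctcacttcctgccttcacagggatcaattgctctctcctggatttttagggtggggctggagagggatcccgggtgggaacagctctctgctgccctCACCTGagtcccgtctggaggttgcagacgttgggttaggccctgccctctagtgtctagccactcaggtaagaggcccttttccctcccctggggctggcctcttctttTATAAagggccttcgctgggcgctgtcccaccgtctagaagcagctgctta
Krt18, chr15:102027966-102028265, plus strand: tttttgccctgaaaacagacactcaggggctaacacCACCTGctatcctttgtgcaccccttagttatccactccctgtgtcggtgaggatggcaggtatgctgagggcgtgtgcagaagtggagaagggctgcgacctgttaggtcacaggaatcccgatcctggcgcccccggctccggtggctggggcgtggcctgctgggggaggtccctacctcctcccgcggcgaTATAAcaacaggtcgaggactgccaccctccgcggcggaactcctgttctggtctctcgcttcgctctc
Cldn3, chr5:134985964-134986263, plus strand: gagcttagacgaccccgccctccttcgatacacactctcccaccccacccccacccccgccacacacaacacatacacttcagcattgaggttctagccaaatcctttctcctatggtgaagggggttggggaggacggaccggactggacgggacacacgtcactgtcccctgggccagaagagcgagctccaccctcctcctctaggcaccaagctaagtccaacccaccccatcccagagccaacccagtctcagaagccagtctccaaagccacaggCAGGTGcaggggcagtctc

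A RefSeq window was found for 7 of the 9 genes (Krt7, Krt8, Krt18, Cldn3, Cldn4, Cldn6 and Cldn7). All 7 held at least one E2-box on either strand, against 20.2% of 32851 RefSeq promoter windows of the same length, and for Cldn7 this was true of 1 of its 2 windows. TATAA on the gene strand was found in Krt8 and Krt18 alone, against 17.5% of all windows. Its first letter stood at position -1 from the RefSeq start in Krt8 and at -19 in Krt18. RefSeq starts can differ from the gene starts given above, as for Krt7, whose printed window begins past its gene start. The GC box GGGCGG, read on both strands, was found in Krt7, Cldn3, Cldn4, Cldn6 and Cldn7, against 35.7% of all windows. Krt7 was the richest of the printed promoters in CpG, with 21 CpG and 66.3% GC, followed by Krt18 with 17 and 61.3%. Cldn3 had 9 CpG and 60.7% GC, and Krt8 had 6 and 58%. The median RefSeq window had 7 CpG and 52.7% GC, so Krt8 stood near the median in CpG and Krt7 and Krt18 well above it. The AP-1 letters TGANTCA were matched in Cldn4 alone, the CRE letters TGACGTCA in Cldn6 and Cldn7, and the TEAD letters GGAATG in Cldn6 and Cldn7, against 7.81%, 1.79% and 14.7% of all windows. Neither the octamer ATGCAAAT nor the GRHL letters AACNNGTT were matched in any of the 7, against 1.74% and 4.2% of all windows. These last 5 motifs were also searched on both strands, and a match is a string of letters, not a bound site.

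Expression was given as 1 median RPKM (reads per kilobase of transcript, normalised to the mapped reads of the library) per state, so no error between replicates can be attached to any level, and no difference below was tested. The median EpiSC/wild-type ratio over 9077 genes was 1.89, and EpiSC values were therefore also divided by that ratio ("scaled"). The ratio for Nanog-/- ESCs was 1.05 over 9496 genes and was not applied. Differences are given on the log2(RPKM + 1) scale, which understates the change of low genes, and a gene is called higher or lower when its difference reached 1 with at least 1 RPKM in either state. The knocked-out gene itself, Nanog, stood at 418 RPKM in wild-type ESCs, 361 in EpiSCs and 22.3 in Nanog-/- ESCs, 18.8-fold lower in the last than in wild-type ESCs. The values of that last state come from a column headed BT12, read here as the Nanog-/- line. The labelled states were also read against marker lists, and the shares over all genes are given below. All 7 measured naive pluripotency markers were lower in EpiSCs after scaling (6 without). Of 10 primed epiblast markers 6 were higher and 1, Lefty2, was lower (180 RPKM in wild-type ESCs, 26.0 in scaled EpiSCs). In Nanog-/- ESCs 3 of the 7 naive markers, Nanog among them, and 3 of the 10 primed markers were lower, and 0 of either list were higher.

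In EpiSCs the simple epithelial keratins Krt8, Krt18 and Krt19 were higher than in wild-type ESCs, by 2.98- to 4.24-fold after scaling, whereas the claudins Cldn3 and Cldn9 were lower by 2.26- and 3.32-fold after scaling. In Nanog-/- ESCs none of the 6 genes passed the threshold in either direction. Among all genes with at least 1 RPKM in either state, 15.5% were higher and 14.4% lower in EpiSCs, and 2.59% were higher and 2.08% lower in Nanog-/- ESCs, so 3 of 6 higher and 2 of 6 lower is to be read against those shares.

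**Figure D1:**
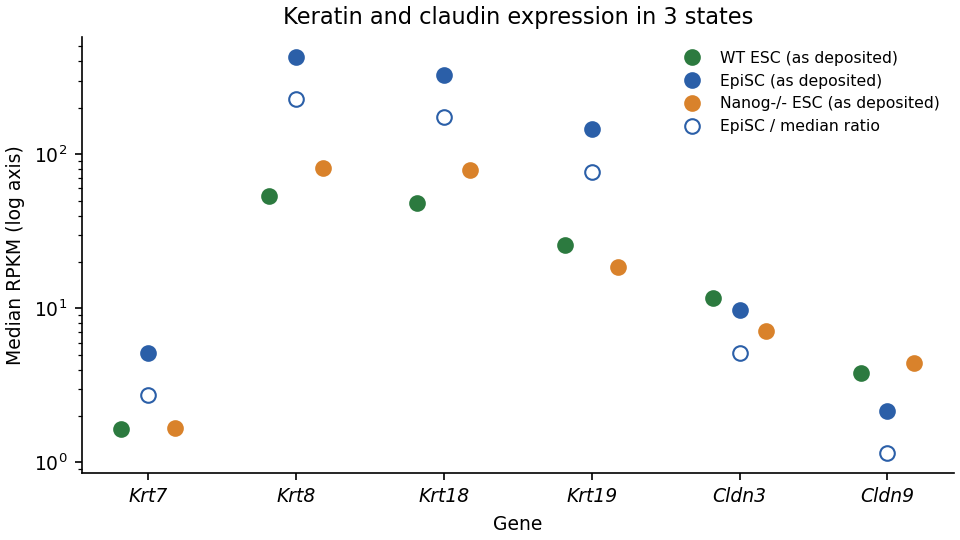
Median RPKM (log axis) of the 6 measured genes in wild-type ESCs (green), EpiSCs as deposited (filled blue), EpiSCs divided by the median ratio (open blue) and Nanog-/- ESCs (orange); each point is 1 group median with no error available. Krt8, Krt18 and Krt19 stand higher in EpiSCs on either scale, and the 2 claudins stand lower in EpiSCs on the scaled values, by more than the threshold only after scaling.

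Krt8, the type II partner of Krt18, stood at 53.8 RPKM in wild-type ESCs, 430 in EpiSCs (228 scaled) and 81.1 in Nanog-/- ESCs. The log2 difference from wild-type ESCs was 2.06 in EpiSCs, larger than that of 96.3% of genes, and 0.58 in Nanog-/- ESCs. Krt18 stood at 48.5, 327 (173 scaled) and 78.5 RPKM, with differences of 1.82 and 0.68. The pair was thus high and low in the same states, and per length its levels were close to each other, with a Krt8/Krt18 ratio of 1.11 in wild-type ESCs, 1.32 in EpiSCs and 1.03 in Nanog-/- ESCs. Both genes are known to have processed pseudogenes, and how reads shared with such copies were counted is not given in the sources used here.

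Krt19, a small type I keratin of ductal epithelia, stood at 25.9 RPKM in wild-type ESCs, 146 in EpiSCs (77.2 scaled) and 18.6 in Nanog-/- ESCs. Its differences were 1.54 and -0.45, so it shared the direction of Krt8 and Krt18 in EpiSCs but lay on the other side of 0 in Nanog-/- ESCs, below the threshold. Krt7, a type II keratin of ducts and of the urinary tract lining, was the lowest of the 4 keratins in each state at 1.64, 5.16 (2.74 scaled) and 1.68 RPKM. Its EpiSC difference of 0.50 did not reach the threshold after scaling but was 1.22 without it. Summed over these 4 keratins only, type II (Krt7 and Krt8) reached 55.4 RPKM against 74.3 for type I (Krt18 and Krt19) in wild-type ESCs. The sums were 435 against 472 in EpiSCs and 82.8 against 97.1 in Nanog-/- ESCs. The type II to type I ratio of these 4 genes was accordingly 0.745, 0.921 and 0.852. It leaves out other measured type I keratins, among them Krt42 (25.4, 0.510 and 7.16 RPKM) and Krt17 (19.4, 1.98 and 5.33 RPKM), so it is not the balance of all chains.

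Cldn3, a barrier-forming claudin, stood at 11.7 RPKM in wild-type ESCs, 9.71 in EpiSCs (5.15 scaled) and 7.12 in Nanog-/- ESCs. Cldn9, a claudin best known from the inner ear, stood at 3.82, 2.17 (1.15 scaled) and 4.42 RPKM. The EpiSC differences were -1.04 and -1.16 after scaling, but -0.24 and -0.61 without it, so the claudins passed the threshold only on the scaled values. In Nanog-/- ESCs the differences were -0.64 for Cldn3 and 0.17 for Cldn9. The order of the 6 levels, from Krt8 through Krt18, Krt19, Cldn3 and Cldn9 to Krt7, was shared by wild-type and Nanog-/- ESCs, whereas in EpiSCs Krt7 stood above Cldn9. Whether neighbours in this order differ beyond the spread between replicates cannot be said from medians.

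Scaling shifted the reference for all of these differences: the median gene differed by 0.01 after scaling and by 0.86 without it, and 43% of genes were then called higher and 8.27% lower. Relative to that median, Krt8, Krt18 and Krt19 were higher on both scales, at 2.98, 2.73 and 2.45 without scaling. In these bulk samples, fewer cells of a type and less RNA per cell cannot be told apart.

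The genes whose pair of differences lay nearest to each member, among 9097 genes with at least 5 RPKM in some state, were named by their distance over both differences. Snx33 and Gm16721 lay nearest to Krt8 (distances 0.0191 and 0.0265), Leprel1 and Sept8 to Krt18 (0.00875 and 0.0295), and Cercam and Mab21l2 to Krt19 (0.0272 and 0.034). For Krt7 they were Ociad1 and 1700037C18Rik (0.00174 and 0.00857), for Cldn3 Kank2 and Sash1 (0.0474 and 0.0733), and for Cldn9 Nsun2 and Heatr1 (0.0127 and 0.0322). The likeness rests on 2 differences that share the wild-type median, and neither Krt8 nor Krt18 was among the nearest 2 of the other.

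Most other keratins were at low levels in these cells. Of 47 other keratin rows in the table, 4 of them listed under an older symbol, 43 were under 1 RPKM in all 3 states. Of the remaining 4, Krt42, Krt17 and Krt79 were lower in EpiSCs. The fourth, Krt90, a type II cluster gene listed as 4732456N10Rik, stood at 0.0162 RPKM in wild-type ESCs, 1.91 in EpiSCs (1.01 scaled) and 0.0147 in Nanog-/- ESCs, with an EpiSC difference of 0.99 after scaling, just under the threshold, and 1.52 without it. Krt42, a type I keratin, stood at 25.4 RPKM in wild-type ESCs, 0.510 in EpiSCs and 7.16 in Nanog-/- ESCs. Krt17, a type I keratin of basal and injured epithelium, stood at 19.4, 1.98 and 5.33 RPKM, and Krt79 at 1.11, 0.0257 and 0.432 RPKM. Krt42 and Krt17 lie in the type I cluster with Krt19, and wild-type ESCs held all 3 of these type I genes at 19.4 to 25.9 RPKM, whereas in EpiSCs Krt19 stood at 146 RPKM and both others under 2. Krt42, Krt17 and Krt79 were lower with and without scaling.

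Other intermediate filament genes were more often higher than lower in EpiSCs, with 4 of 12 higher and 1 lower (8 and 1 without scaling). Over all genes 15.5% were higher and 14.4% lower, or 43% and 8.27% without scaling. The median difference of these filament genes was 0.66 after scaling, against 0.01 over all genes. Nes, a filament of neural progenitors, differed by 3.50, Nefm, a neurofilament subunit, by 2.62, and Vim, the mesenchymal filament vimentin, by 2.19. Ina, the neuronal internexin chain, was the one lower gene, at -2.13. Vim stood at 134 RPKM in wild-type ESCs, 1162 in EpiSCs and 231 in Nanog-/- ESCs, so in each state it exceeded Krt8.

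The genes that keratins and claudins work with in epithelia were more often lower than higher in EpiSCs after scaling. Over 4 lists (other claudins, other tight junction genes, desmosome and keratin-linker genes, and epithelial identity genes), 7 of 49 genes were higher and 20 lower after scaling, with a median difference of -0.49 against 0.01 over all genes. Over all genes 15.5% were higher and 14.4% lower after scaling. Without scaling 19 of 50 were higher and 13 lower, against 43% and 8.27% of all genes. Genes of these lists were thus lower more often than all genes on either scale. In Nanog-/- ESCs 0 were higher and 5 lower, with a median of -0.10 against 0.07 over all genes.

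The epithelial identity list (adhesion, trafficking, splicing and transcription factor genes of epithelia) stood lowest, with 0 of 16 higher and 10 lower in EpiSCs at a median of -1.47, and 1 higher and 7 lower without scaling. Ap1m2, the epithelial adaptor subunit for basolateral sorting, stood at 52.1 RPKM in wild-type ESCs, 0.0557 in EpiSCs and 32.2 in Nanog-/- ESCs. Elf3, an epithelial ETS factor, stood at 41.0, 9.75 and 25.4 RPKM, and Rab25, an epithelial recycling GTPase, at 14.2, 2.52 and 3.28 RPKM. Chosen after their values were seen, Grhl2, a transcription factor of epithelial junction genes, stood at 19.9, 5.27 and 19.8 RPKM, and Epcam, an epithelial adhesion molecule, at 195, 331 and 150 RPKM. Epcam, unlike Grhl2, did not reach the threshold in either comparison, with differences of -0.15 and -0.38. Higher Krt8, Krt18 and Krt19 in EpiSCs thus stood beside lower Elf3, Grhl2 and Rab25.

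Tight junction genes other than claudins split nearly evenly, with 5 of 20 higher and 6 lower in EpiSCs (11 and 3 without scaling). Jam2, a junctional adhesion molecule, differed by -4.02 and Ildr1, a tricellular junction protein, by -3.23, whereas Mpdz, a multi-PDZ scaffold, differed by 2.16. Of 9 desmosome and keratin-linker genes 1 was higher, Dsc2 (1.07, a desmosomal cadherin), and 3 were lower: Pkp3 (-2.55, a desmosomal plaque protein), Evpl (-1.32, a keratin linker) and Jup (-1.18, plakoglobin). Without scaling 3 were higher and 2 lower, where 43% of all genes were higher and 8.27% lower. Among 4 other claudins with at least 1 RPKM, Cldn11 (1.08) was higher and Cldn5 (-1.72) lower, and without scaling 4 of 5 were higher and 1 lower. The 5 lower genes in Nanog-/- ESCs were Esrp1 (-1.92, an epithelial splicing factor), Rab25 (-1.83), Tjp3 (-1.08, a tight junction scaffold), Cdh1 (-1.04, E-cadherin) and Cdh3 (-1.02, P-cadherin).

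**Figure D2:**
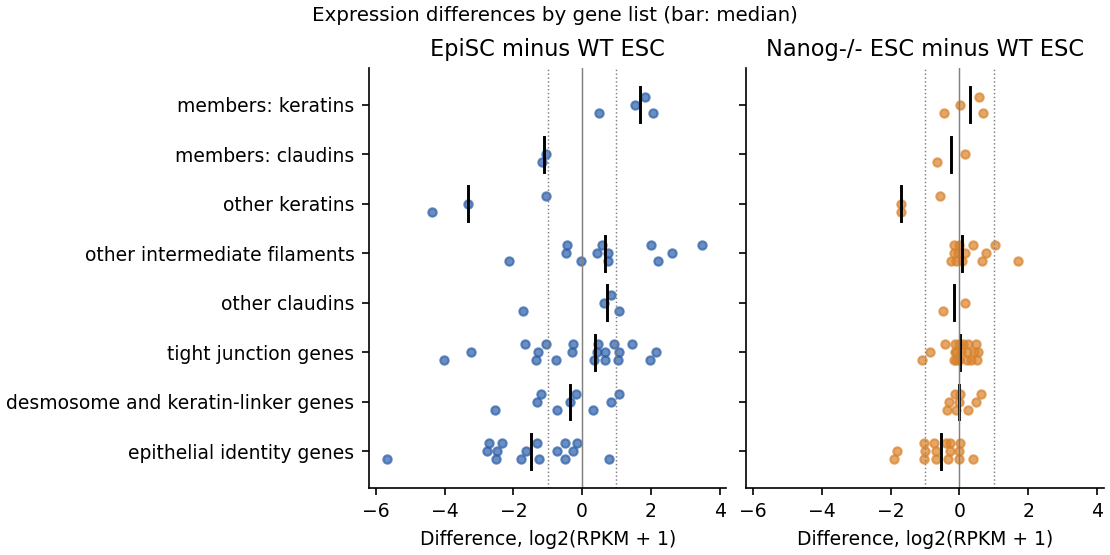
Differences from wild-type ESCs in log2(RPKM + 1), with EpiSC values scaled, for each measured gene (points) and the median (bar) of the keratins and claudins followed here and of 6 related lists; dotted lines mark the threshold of 1. In EpiSCs the 4 keratins sit to the right at a median of 1.68 and the epithelial identity genes to the left at -1.47, whereas most points in Nanog-/- ESCs lie between the dotted lines.

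Markers of other cell types differed between the same states as the keratins. In EpiSCs 6 of 8 measured fibroblast markers were higher after scaling, 8 of 8 without, and their summed level was 52.5 RPKM in wild-type ESCs, 437 in EpiSCs (232 scaled) and 74.9 in Nanog-/- ESCs, led by Col1a1 at 137 RPKM in EpiSCs. Of 7 measured trophectoderm markers, a cell type that expresses Krt8 and Krt18, 4 reached 1 RPKM in the EpiSC comparison, of which 1 was higher and 2 lower after scaling and 1 higher and 0 lower without. The higher one was Eomes, also a gene of the primitive streak, at 2.85 RPKM in wild-type ESCs and 26.2 in EpiSCs (difference 1.95), while Cdx2 stood at 0.781 and Elf5 at 0.0413 RPKM in EpiSCs. Of 6 endoderm markers that reached 1 RPKM in the same comparison, 3 were higher and 2 lower (3 and 1 without scaling). Sox17 was 28.2-fold, Gata6 8.05-fold and Dab2 4.19-fold higher after scaling, while Lama1 stood at 11.2 RPKM in wild-type ESCs and 1.79 in scaled EpiSCs. In Nanog-/- ESCs, where Krt8 and Krt18 differed by 0.58 and 0.68, all 7 testable primitive and visceral endoderm markers of 10 were higher at a median of 2.85, their summed level being 18.3 RPKM in wild-type ESCs, 20.1 in scaled EpiSCs and 129 in Nanog-/- ESCs, while Afp and Ttr stayed under 0.1 RPKM. Of 6 testable trophectoderm markers in Nanog-/- ESCs, 1 was higher, Hand1 (0.705 RPKM in wild-type ESCs and 4.49 in Nanog-/- ESCs), and 0 were lower. Of 8 fibroblast markers 2, Pdgfra and Postn, were higher there and 0 lower. Of 8 surface ectoderm and stratified epithelium markers 0 were higher and 4 lower in EpiSCs, with Krt5 at 0.0715, Krt14 at 0.0558 and Trp63 at 0.197 RPKM. The part of these cell types in the keratin and claudin levels was not tested.

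The promoter contacts of the same 6 genes were read from 3 lists, 1 per state, of pairs of HindIII restriction fragments in which at least one fragment was a captured promoter, the bait. Each listed pair had a read count and a CHiCAGO score, which weighs the reads against those of random contacts at the same distance, and the lists held pairs with a score of 5 or more. A bait can hold the start of more than one gene. As each list combined the replicates of a state, stated as 2 per cell type, no replicate error exists for any contact. The lists held 100492, 87369 and 74931 different pairs with 2177284, 1651286 and 1438555 reads in wild-type ESCs, EpiSCs and Nanog-/- ESCs, so the lists differ in depth.

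The 6 baits had 58 contacts in wild-type ESCs, 72 in EpiSCs and 69 in Nanog-/- ESCs, all within their chromosome. Krt19 accounted for most of the EpiSC excess with 20, 37 and 23 contacts. Krt18 had 8, 11 and 13, and Cldn3 had 1, 5 and 3. Krt8 with 14, 9 and 12 and Krt7 with 15, 10 and 16 had their fewest in EpiSCs, and Cldn9 had 1, 0 and 3. Across all baits, 33.5% had more and 52.8% fewer contacts in EpiSCs than in wild-type ESCs, and 21.6% more and 60.7% fewer in Nanog-/- ESCs. Here 3 baits had more and 3 fewer in EpiSCs, and 5 had more and 1, Krt8, fewer in Nanog-/- ESCs. At a score of at least 7, Krt7 had 5, 5 and 7 contacts, Krt8 had 6, 4 and 7, Krt18 had 2, 2 and 3 and Cldn3 had 1, 1 and 2. At that score Cldn3, Krt18 and Krt7 thus had equal counts in wild-type ESCs and EpiSCs. Equal counts were not always the same contacts, since that of Cldn3 was Abhd11 (8.72) in wild-type ESCs and Eln (10.57) in EpiSCs. At 10 or more reads the directions between wild-type ESCs and EpiSCs remained. Krt7 then had 11, 4 and 9 contacts, Krt18 had 4, 7 and 5 and Cldn3 had 1, 3 and 3. Krt8 had 8, 7 and 8. The directions in Nanog-/- ESCs did not all hold. At a score of at least 7, Krt8 had more contacts there than in wild-type ESCs, and Krt19 had fewer (7 against 11). At 10 or more reads Krt7 had fewer there and Krt8 an equal count. More contacts did not go with a higher level throughout, since Krt8 had fewer contacts and a higher level in EpiSCs, and Cldn3 had more listed contacts and a lower scaled level.

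**Figure D3:**
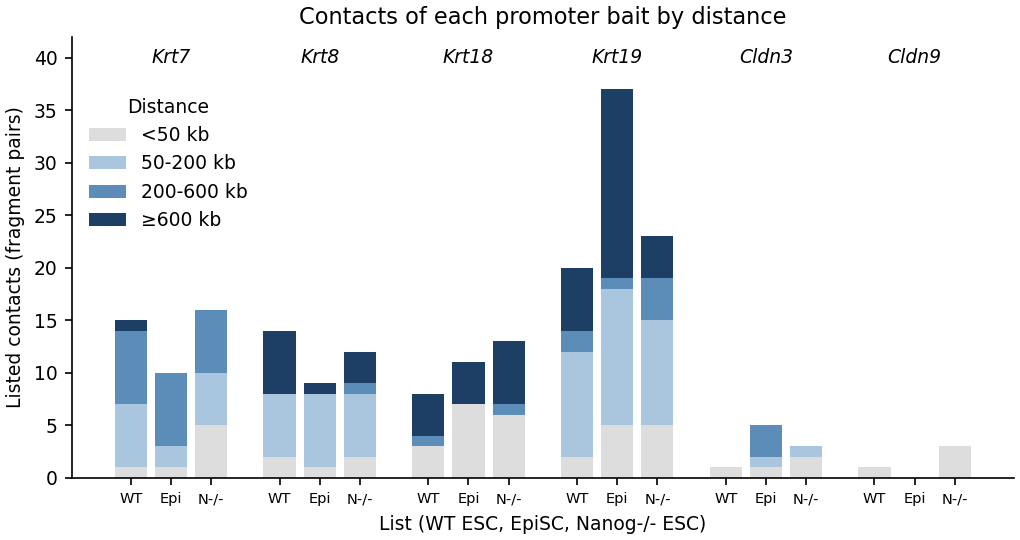
Number of listed contacts (fragment pairs) of each of the 6 baits in the wild-type ESC (WT), EpiSC (Epi) and Nanog-/- ESC (N-/-) list, stacked by distance from the bait. The Krt19 bar in EpiSCs is the tallest at 37, of which 18 lie at 600 kb or more, and Cldn9 has no bar in EpiSCs.

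Contacts that joined baits made up 62.1% of those of the 6 genes in wild-type ESCs, 45.8% in EpiSCs and 55.1% in Nanog-/- ESCs, against 23.1%, 18.4% and 22% of all pairs. Of the 58 wild-type contacts, 29 were also in the EpiSC list (50%, Wilson 95% interval 37.5 to 62.5%, counting error only) and 31 in the Nanog-/- list (53.4%, 40.8 to 65.7%). Over all wild-type pairs these shares were 39.6% and 41.8%, both inside those intervals. Contacts of the same bait are not independent, which the intervals do not take into account. Of the 126 different pairs in any list, 19 were in all 3 (15.1%), against 14.4% of all pairs.

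Krt8 and Krt18, 28.8 kb apart, shared a contact with each other, and both reached the same fragments on either side. The Krt8-Krt18 pair had 42 reads and a score of 5.79 in wild-type ESCs and 24 reads and 8.66 in Nanog-/- ESCs, and was not in the EpiSC list, the state in which both genes were highest. In the EpiSC list Krt18 did contact the fragments that abut the Krt8 fragment on both sides. These had 48 reads (5.71, chr15:102007027-102008078) and 28 reads (5.00, chr15:101990971-101992013). On the side of Eif4b, a translation initiation factor gene expressed at 602, 613 and 556 RPKM, the fragment with its start (chr15:102072345-102074579) was contacted by Krt8 and Krt18 in all 3 lists. For Krt8 that pair had 19, 11 and 12 reads with scores of 12.43, 8.76 and 13.15. For Krt18 it had 22, 17 and 9 reads with scores of 9.57, 9.57 and 6.26. Krt8 also contacted a run of intergenic fragments before the Eif4b fragment. Among these, chr15:102070296-102071912 was in all 3 lists, with 21, 12 and 17 reads and scores of 8.35, 8.81 and 13.09. So was chr15:102065677-102068967, with 29, 11 and 27 reads and scores of 12.83, 7.58 and 24.75, the last being the highest of any Krt8 contact. Krt18 reached the latter fragment in EpiSCs (35 reads, 7.53) and Nanog-/- ESCs (26 reads, 9.94), and Krt7 reached it from 656 kb in wild-type ESCs alone (5 reads, 5.22).

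On the other side, Krt8 and Krt18 reached across the type II cluster to its far end. Krt8 had 6 contacts at 600 kb or more in wild-type ESCs, 1 in EpiSCs and 3 in Nanog-/- ESCs, and Krt18 had 4, 4 and 6. At a score of at least 7, Krt8 and Krt18 each had 1, 0 and 0 contacts that far. At 10 or more reads both had 0 in every list. Over all pairs 3.03%, 3.78% and 1.06% lay that far. The fragment that holds the start of Krt80, a type II keratin (chr15:101368088-101373206, its bait named for Mir1941), was contacted by Krt7, Krt8 and Krt18. From Krt8, 629 kb away, it had 7 reads (score 6.58) in wild-type ESCs and 4 (5.79) in EpiSCs, and from Krt18 9 (6.53) and 7 (6.45). From Krt7, 41.1 kb away, it had 45 reads (9.19) in wild-type ESCs and 28 (15.54) in Nanog-/- ESCs. Past it, Krt18 contacted the bait of Nr4a1, a nuclear receptor gene, at 760 kb in wild-type ESCs (7 reads, 6.27). Fragments of 6030408B16Rik were reached by Krt8 at 706 kb in wild-type and Nanog-/- ESCs and by Krt18 at 735 kb in EpiSCs and Nanog-/- ESCs. Each contact of Krt8 and Krt18 at this range rested on 4 to 9 reads.

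Krt7 looked the other way, into the cluster. Of its contacts 7 of 15, 5 of 10 and 8 of 16 joined baits named for other keratins. Krt73, an inner root sheath keratin 389 kb away, was in all 3 lists with 17, 11 and 10 reads and scores of 16.18, 12.27 and 13.93, the highest Krt7 score in wild-type ESCs and EpiSCs. Krt86, a hair keratin 61.4 kb away, was the other contact in all 3, with 25, 19 and 17 reads and scores of 5.71, 6.30 and 10.30. Krt78, 538 kb away, was listed in wild-type ESCs (11 reads, 11.11) and Nanog-/- ESCs (6 reads, 7.90), and Krt2, 412 kb away, in EpiSCs (7 reads, 7.54). Of 15 partner genes of Krt7 with an RPKM value, 14 were under 1 RPKM in all 3 states, and the other was Krt90.

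**Figure D4:**
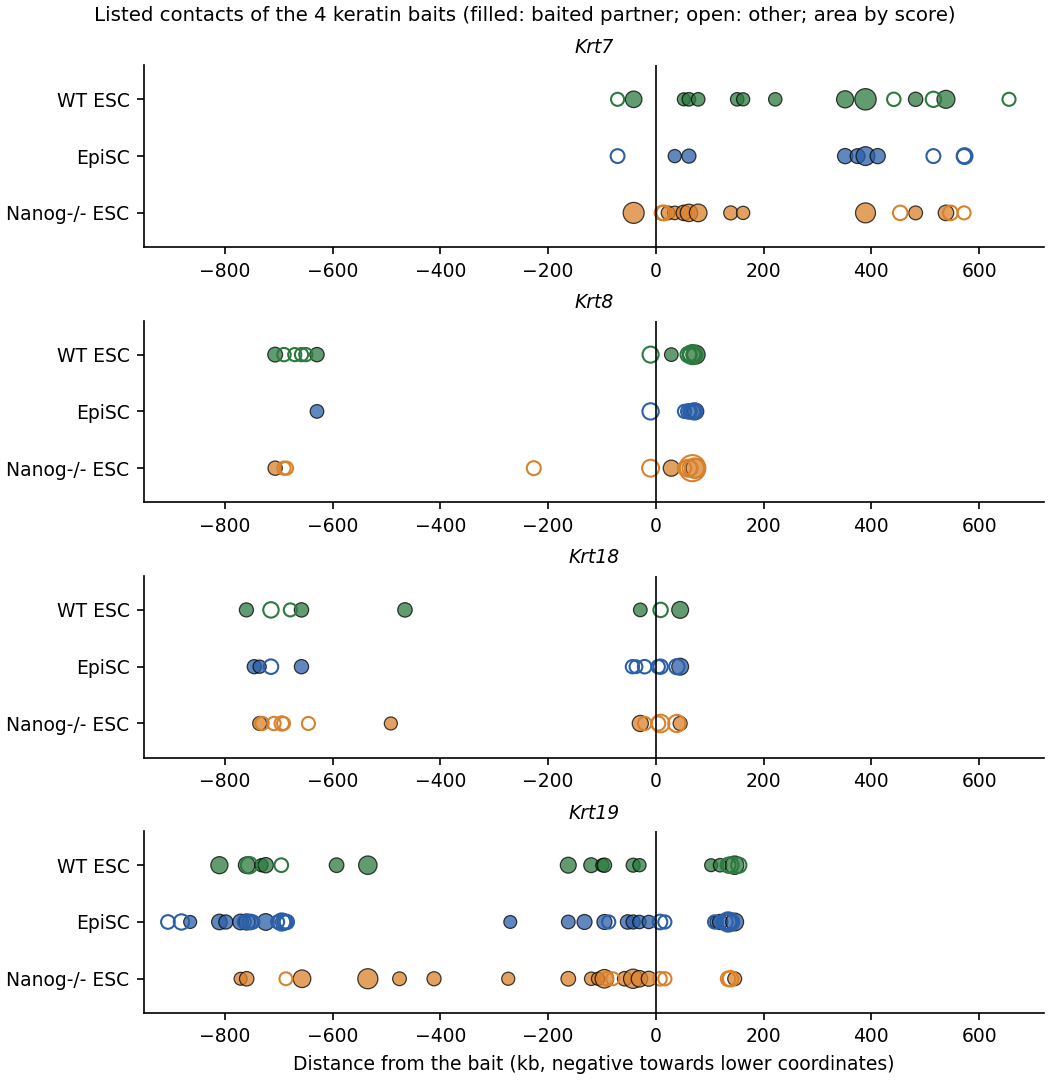
Position of each listed contact of the Krt7, Krt8, Krt18 and Krt19 baits by distance from the bait (kb, negative towards lower coordinates) in the 3 lists; filled points are baited partners, open points other fragments, and the area grows with the score. Krt7 reaches up to 656 kb towards higher coordinates, Krt8 and Krt18 cluster near the bait and at 629 to 760 kb towards lower coordinates, and the far group of Krt19 is densest in EpiSCs.

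The median bait had 3 contacts in the wild-type ESC list and 3 in the EpiSC list. The Krt19 bait (chr11:100147712-100150027) had 17 more contacts in EpiSCs than in wild-type ESCs, a gain reached by 84 of 19022 baits (0.442%). Krt19 had the largest gain of the baits followed here, and only its gain was ranked. Its contacts at 600 kb or more numbered 6, 18 and 4. At a score of at least 7 it had 11, 15 and 7 contacts, of which 4, 7 and 1 lay that far, and at 10 or more reads 12, 17 and 13, of which 2, 0 and 0 lay that far, so the far EpiSC group consisted of contacts with fewer than 10 reads. They fell into a stretch from Krt222 (906 kb, 5 reads, 5.85, in EpiSCs) past Krt26 and Krt12 to Krt23, and each had 5 to 11 reads. Krt26, an inner root sheath keratin at 810 kb, had 11 reads (9.89) in wild-type ESCs and 7 (7.94) in EpiSCs, and the fragment with the start of Krt10, a keratin of suprabasal skin at 759 kb, was in all 3 lists with 10, 7 and 6 reads and scores of 9.31, 8.67 and 6.69. Krt12, the corneal keratin at 724 kb, had 9 reads (7.61) in wild-type ESCs and 8 (9.41) in EpiSCs. The EpiSC group also included 8 reads (10.01) with an intergenic fragment at chr11:99454204-99454658. Many fragments of this group abut one another, as in the run from chr11:99372747 to chr11:99404580. The count of contacts is therefore not a count of separate places.

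Nearer to Krt19, Krt36 (42.1 kb; 36, 29 and 29 reads; scores 6.17, 6.34 and 12.89) and Krt13 (30.4 kb; 38, 28 and 27 reads; scores 5.37, 5.58 and 9.10) were in all 3 lists. Towards higher coordinates, a run of intergenic fragments beyond Krt42 was contacted in every list, and the one at chr11:100282160-100283901 had 19, 21 and 11 reads with scores of 7.15, 13.01 and 6.76. The EpiSC score of 13.01 was the highest of Krt19 in that state. Krt42 and Krt17, the type I genes that were low in EpiSCs, had contacts with Krt19 there. Krt42 was listed in wild-type ESCs (19 reads, 5.63) and EpiSCs (18 reads, 7.54) and Krt17 in EpiSCs alone (12 reads, 5.25). Of 25 partner genes of Krt19 with an RPKM value, 23 were under 1 RPKM in all 3 states, and the other 2 were Krt17 and Krt42.

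Most neighbours of Krt19 had fewer contacts in EpiSCs. Of 45 other baits in the type I cluster named for keratin or keratin-associated genes, 4 had more and 41 fewer contacts in EpiSCs than in wild-type ESCs, their medians being 22, 9 and 13 contacts in the 3 lists and their largest gain 11. Of 19 such baits in the type II cluster, 3 had more and 15 fewer in EpiSCs, with medians of 31, 23 and 37. In that cluster Krt18 gained 3 while Krt7 and Krt8 each had 5 fewer.

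The claudin baits had few contacts, over shorter distances. Cldn3 contacted the bait of Abhd11, a mitochondrial hydrolase gene at 18.4 kb, in all 3 lists (41, 23 and 34 reads), at scores of 8.72, 5.19 and 12.34. EpiSCs added Eln, the elastin gene at 241 kb (12 reads, 10.57), and 3 others, of which the fragment with the start of Tmem270 at 84.6 kb was also in the Nanog-/- list with 10 reads (5.99 and 7.10). Eln itself stood at 1.80, 6.68 and 1.75 RPKM. Cldn9 contacted the neighbouring fragment that holds the starts of Cldn6 and Tnfrsf12a, at 8.79 kb. The pair had 53 reads and a score of 36.09 in wild-type ESCs and 37 reads and 29.87 in Nanog-/- ESCs, the highest scores of any of the 6 genes. It was not in the EpiSC list, where Cldn9 had no contact at all, while that partner fragment had 19, 17 and 18 contacts of its own. Tnfrsf12a, a TNF receptor family gene, stood at 35.5, 146 and 64.0 RPKM.

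Reads of the contacts listed in both wild-type ESCs and EpiSCs were set against the median ratio of all shared pairs, which was 0.833 for EpiSCs (39765 pairs, quartiles 0.691 to 1) and 0.619 for Nanog-/- ESCs (41986 pairs). Krt8 stood lowest in EpiSCs with a median of 0.556 over 7 shared contacts and a range of 0.379 to 0.579, all below the lower quartile of all pairs. A median at or below that of Krt8 was reached by 1.59% of 3341 baits with at least 5 shared pairs. Only Krt8, the lowest of the baits followed here, was ranked in this way, so the share is that of an extreme member. The other keratins had medians of 0.714 for Krt7 (5 contacts), 0.720 for Krt18 (4) and 0.768 for Krt19 (12). In Nanog-/- ESCs the Krt8 median was 0.667 over 9 contacts, a value at or above that of 75.5% of 3640 baits. The shared contacts of a bait are not independent, since they are read from 1 captured fragment.

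**Figure D5:**
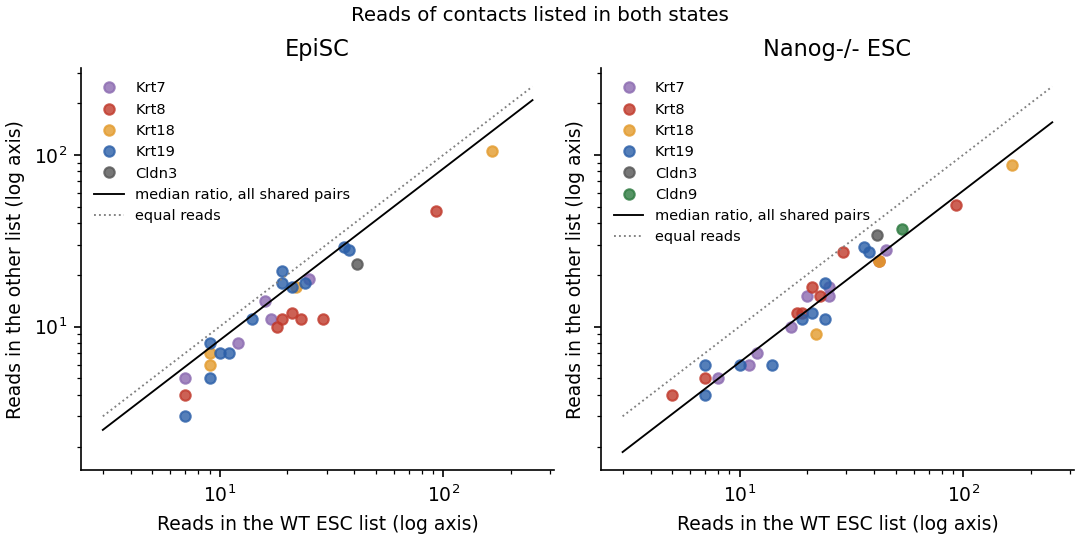
Reads of each contact of the 6 baits listed in both states, wild-type ESCs on the horizontal and EpiSCs (left) or Nanog-/- ESCs (right) on the vertical log axis; the solid line is the median ratio over all shared pairs (0.833 and 0.619) and the dotted line equal reads. The Krt8 points (red) lie below the solid line in EpiSCs and on both sides of it in Nanog-/- ESCs.

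Over the 6 baits, 54 different partner genes had an RPKM value and 41 of them were under 1 RPKM in all 3 states, against 29.3% of all genes in the table. Of the partners that reached 1 RPKM, 13 in all, some were shared between baits. By bait, 5 of the 7 partners of Krt18 with a value and all 3 of Cldn9 reached 1 RPKM, against 1 of 15 for Krt7 and 2 of 25 for Krt19.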

How the data were processed

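RNA-seq and PCHi-C of wild-type ESCs, EpiSCs and Nanog-/- ESCs were used, grouped by their labels. The submitters' processing notes name Bowtie 1.1.0, Trim Galore, TopHat and DESeq2. The authors deposited RPKM values as 1 median per state, and the read counting and annotation behind them are not given in the sources used here. The column headed BT12 was read as Nanog-/- ESCs by the line's name, RCNβH-B(t), the other columns naming ESCs and EpiSCs. The same table holds the authors' own fold changes and p-values, which were not used. The authors deposited PCHi-C lists with a count of reads and a CHiCAGO score per HindIII fragment pair, after mapping with HiCUP and combining replicates, in mm10 coordinates (GRCm38), and pairs listed from both ends were counted once here at the higher score.

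A pseudocount of 1 RPKM and a minimum of 1 RPKM in either state were used. The EpiSC median ratio was taken over genes with at least 1 RPKM in both states. No replicate values were at hand, so there are no tests; Wilson intervals cover counting error only. Of each related list, the 3 genes with the largest difference past the threshold were named, plus all partner genes contacted by the baits as counts, and exceptions are stated. The members and lists were chosen with earlier results of these data known. Counting steps were tested on simulated data. Promoter windows were from RefSeq (GRCm38.p6). Python 3.11.15, numpy 2.4.6, pandas 2.3.3, scipy 1.17.1 and matplotlib 3.10.9 were used. Alternatives were other pseudocounts, minima, folds and scalings, and stricter scores, reads and distances.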

Additional observations from a re-analysis of the deposited data

How the results depend on the processing

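Without scaling, 0 of the 6 genes were lower in EpiSCs. Junction and epithelial genes were then 19 higher and 13 lower, in place of 7 higher and 20 lower. Of all genes 43% were higher and 8.27% lower without scaling. With a minimum of 5 RPKM, 1 of the 6 was lower in EpiSCs. With a fold of 1.5, junction and epithelial genes higher in EpiSCs numbered 14, and in Nanog-/- ESCs 1 of the 6 genes was higher and 1 lower, and 1 junction and epithelial gene was higher and 10 lower. At a score of at least 7, the contacts of the 6 baits numbered 26 in wild-type ESCs, 27 in EpiSCs and 27 in Nanog-/- ESCs, and at 10 or more reads 36, 38 and 39. No difference of a single member that passed the threshold changed sign, while the Krt7 difference in Nanog-/- ESCs went from 0.02 to -0.02 when that state was scaled. No paired analysis was possible because the columns hold 1 median or 1 combined list per state and carry no replicate, and for the same reason no replicate could be left out. A contact missing from a list is not shown to be absent, and the part of depth was not tested.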
